A study of Mus musculus with 16 samples.

Results

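The sustentacular xenobiotic enzymes are enzymes that oxidise, reduce or conjugate foreign small molecules and that the supporting (sustentacular) cells of the olfactory epithelium are known to make in quantity. The genes followed here were a list of 10, and a gene entered through any probe set of the deposited table whose platform gene symbol matched it. Of the 10, 9 had a probe set, 1 each, among the 19572 probe sets with a gene symbol. Ugt2a1, an olfactory glucuronosyltransferase, had no named probe set and was not analysed here. The measured genes were the cytochrome P450 genes Cyp2a5, Cyp2g1, Cyp1a2 and Cyp2f2, the flavin-containing monooxygenase gene Fmo2, the carbonyl reductase gene Cbr2, the sulfotransferase gene Sult1c1, and the glutathione transferase genes Gsta4 and Gstm2.

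The arrays came from S100a5-tauGFP mice, whose tau-GFP reporter is driven from S100a5, a calcium-binding protein gene used as a marker of recent activity in olfactory sensory neurons (OSNs). The mice were of both sexes and 7 to 12 weeks old, 24 in all, and each was kept alone for 40 h in a chamber with clean air flowing at 3.1 L/min. From 26 h onward a 10 s pulse came every 20 min, of citrus accord at 100% in the citrus groups and of filtered air in the vehicle groups. Dissociated olfactory mucosa was sorted by FACS into GFP+ and GFP- cells, the cells of 3 mice made 1 sample, and 16 samples formed 4 groups of 4 arrays: citrus GFP+, citrus GFP-, vehicle GFP+ and vehicle GFP-. Both gates therefore carry the reporter allele, and neither gate was a sort for supporting cells.

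Supporting cells span the epithelium, surround the neurons and hold a dense smooth endoplasmic reticulum. They are known for metabolising inhaled chemicals. Their P450 and flavin monooxygenase enzymes add or expose a reactive group (phase I), carbonyl reductases reduce aldehydes and ketones, and transferases then attach a sulfate, glucuronide or glutathione (phase II), which makes the product easier to remove. In the olfactory mucosa these enzymes are known both for clearing odorants and for activating some toxicants.

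Promoters are shown for 3 genes: Cyp2a5, Cyp1a2 and Sult1c1. These passed the test between the gates in both stimulus groups with the pool of mice as a fixed block. With the pool as a random effect, only Sult1c1 passed in both. Each line holds the 250 bases before the start site, 5′ to 3′ on the gene's strand, from RefSeq (GRCm38.p6). Capitals mark TATAAA on the gene's strand, the letters of a TATA box, and TTGGCA on either strand, a half-site of nuclear factor I, a factor known from the promoters of olfactory genes.
Cyp2a5, chr7:26835089-26835338, plus strand: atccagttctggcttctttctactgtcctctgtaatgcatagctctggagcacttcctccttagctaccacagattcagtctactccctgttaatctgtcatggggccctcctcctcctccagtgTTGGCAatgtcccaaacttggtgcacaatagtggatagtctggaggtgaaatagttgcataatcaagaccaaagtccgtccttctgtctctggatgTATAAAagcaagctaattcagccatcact
Cyp1a2, chr9:57683656-57683905, minus strand: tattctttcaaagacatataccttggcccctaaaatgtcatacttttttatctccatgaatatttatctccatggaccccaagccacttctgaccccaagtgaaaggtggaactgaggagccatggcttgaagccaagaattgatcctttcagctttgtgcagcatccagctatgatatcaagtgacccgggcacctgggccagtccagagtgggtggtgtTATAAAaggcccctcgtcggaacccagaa
Sult1c1, chr17:53990632-53990881, minus strand: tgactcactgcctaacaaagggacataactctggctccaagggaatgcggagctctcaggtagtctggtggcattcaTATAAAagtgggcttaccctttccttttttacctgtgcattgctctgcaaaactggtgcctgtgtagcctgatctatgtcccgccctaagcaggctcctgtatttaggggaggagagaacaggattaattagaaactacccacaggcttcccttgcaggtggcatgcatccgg
TATAAA began 29 bases before the start in both Cyp2a5 and Cyp1a2, and 173 bases before it in Sult1c1. TTGGCA began 125 bases before the start of Cyp2a5. TATAAA occurred in 7.59% and TTGGCA in 12.3% of all 32851 promoter windows of the same length. The promoter table held 8 of the 10 genes, in 9 entries, and none of these 9 windows held GCGTG, the core of the xenobiotic response element bound by the aryl hydrocarbon receptor, on either strand. None held TGACNNNGC, the core of the antioxidant response element, either. These cores were in 28.2% and 10.2% of all windows.

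All values below are the authors' deposited log2 expression values, so 1 unit is a doubling on that scale, and levels of different genes are not compared, since probes differ. Negative-control probes on the same arrays had a 95th percentile of 8.75 to 9.71, and a level under it is called near background here. Differences were tested with limma across all 19572 named probe sets, and a gene is called where the Benjamini-Hochberg adjusted p is under 0.05. S100a5 itself was 1.91 ± 0.13 log2 units (SE) higher in GFP+ than in GFP- cells in vehicle and 1.88 ± 0.13 higher in citrus, which checks the sort. With cells sorted in bulk, fewer supporting cells, less RNA per supporting cell and RNA from other cell types cannot be told apart. Vehicle replicate 1 stood apart, with the lowest vehicle GFP- level for 9 of 9 enzymes. Citrus replicate 1 had the lowest citrus GFP- level for 8 of 9. The share of all named probe sets lowest on these arrays was not counted. A result is also given without vehicle replicate 1 where that changes a call or moves a value by over 1.5 times. This pool was picked from the enzymes' own GFP- levels. Leaving it out raises their vehicle GFP- means and narrows the shared spread, so calls made without it are no independent support for a gate difference.

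Cyp2a5 and Cyp2g1 were above the background level on all 16 arrays, in GFP+ cells too. Cyp2f2 and Cbr2 were above it on 15 of 16, all but vehicle GFP- replicate 1. Sult1c1 was above it on 9 arrays, of which 2 were GFP+. Cyp1a2 was above it on 4 arrays and Gstm2 on 2, all of them GFP-. Gsta4 and Fmo2 were near background on every array, so these 2 probe sets do not show the genes as expressed here. Differences of genes near background are differences of deposited values and may understate a difference in RNA.

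Cyp2g1 is a P450 known almost only from the olfactory mucosa. In citrus its level in replicates 1 to 4 was 12.76, 14.22, 15.69 and 14.81 in GFP+ cells, against 14.57, 16.11, 16.61 and 16.82 in GFP- cells. In vehicle it was 12.13, 15.01, 15.40 and 14.44 in GFP+ cells, against 11.38, 16.72, 16.41 and 16.03 in GFP- cells. The gates overlapped in both stimulus groups, and replicate 1 was the lowest of each group. Within each pool the GFP+ level was the lower one, except in vehicle replicate 1.

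Cyp2a5, the mouse member of the coumarin- and nicotine-oxidising CYP2A enzymes, followed the same order. In citrus it was at 12.08, 13.13, 14.44 and 13.48 in GFP+ cells, against 14.09, 15.62, 16.41 and 16.21 in GFP- cells. The vehicle levels were 10.79, 13.84, 14.69 and 13.33 in GFP+ cells, against 10.28, 16.13, 16.16 and 15.70 in GFP- cells. Vehicle replicate 1 was the lowest array in both vehicle gates, and its GFP- level was over 5 units below the next one. Cyp2a4, a near-identical neighbouring gene, may share signal with the Cyp2a5 probes.

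Cyp2f2, known for activating naphthalene in mouse airway cells, was at 10.10, 11.65, 13.34 and 11.77 in citrus GFP+ cells, against 12.04, 13.86, 14.43 and 14.34 in citrus GFP- cells. Vehicle levels were 9.41, 11.99, 12.81 and 11.66 in GFP+ cells, against 8.63, 13.53, 14.25 and 13.39 in GFP- cells. The gates overlapped in both stimulus groups, with replicate 3 the highest and replicate 1 the lowest of each group.

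Cyp1a2, a P450 that oxidises caffeine and aromatic amines and is a known target of the aryl hydrocarbon receptor, stayed near background in GFP+ cells. It was at 6.23, 5.68, 7.57 and 6.76 in citrus GFP+ cells, against 7.58, 8.27, 9.30 and 9.41 in citrus GFP- cells, and the 2 groups did not overlap. In vehicle it was at 5.39, 6.48, 7.26 and 5.88 in GFP+ cells, against 4.81, 9.51, 9.51 and 8.05 in GFP- cells. Among vehicle replicates 2 to 4 the gates did not overlap either.

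Sult1c1, which transfers sulfate to phenols, had the largest mean difference between the gates among the 9 enzymes in both stimulus groups. It was at 8.15, 8.40, 9.14 and 8.55 in citrus GFP+ cells, against 10.03, 11.43, 12.21 and 12.11 in citrus GFP- cells. In vehicle it was at 7.17, 9.34, 8.96 and 8.29 in GFP+ cells, against 7.11, 12.05, 11.93 and 12.01 in GFP- cells. The citrus groups did not overlap, and of the vehicle GFP- arrays only replicate 1 lay as low as the GFP+ arrays.

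Cbr2, a carbonyl reductase known as an abundant protein of the mouse lung, had the smallest mean difference between the gates in vehicle over all 4 pools, though without replicate 1 those of Gsta4 (-0.43) and Fmo2 (-0.49) were smaller than that of Cbr2 (-0.51). Cbr2 was at 10.37, 12.32, 13.72 and 12.32 in citrus GFP+ cells, against 11.31, 13.70, 14.21 and 14.67 in citrus GFP- cells. The vehicle levels of Cbr2 were 9.99, 13.28, 13.55 and 11.89 in GFP+ cells, against 8.84, 13.94, 13.48 and 12.84 in GFP- cells. Replicate 1 was again the lowest of each group.

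Of the glutathione transferase genes, Gstm2 was at 6.87, 7.36, 8.48 and 7.91 in citrus GFP+ cells, against 7.73, 8.56, 9.08 and 9.17 in citrus GFP- cells. The vehicle levels of Gstm2 were 6.86, 7.79, 8.44 and 7.52 in GFP+ cells, against 6.94, 8.76, 9.19 and 7.86 in GFP- cells. Gsta4, whose enzyme conjugates lipid aldehydes, stayed between 5.47 and 7.05 on the 16 arrays. Fmo2, the flavin monooxygenase known from mammalian lung, stayed between 7.53 and 8.87.

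**Figure D1:**
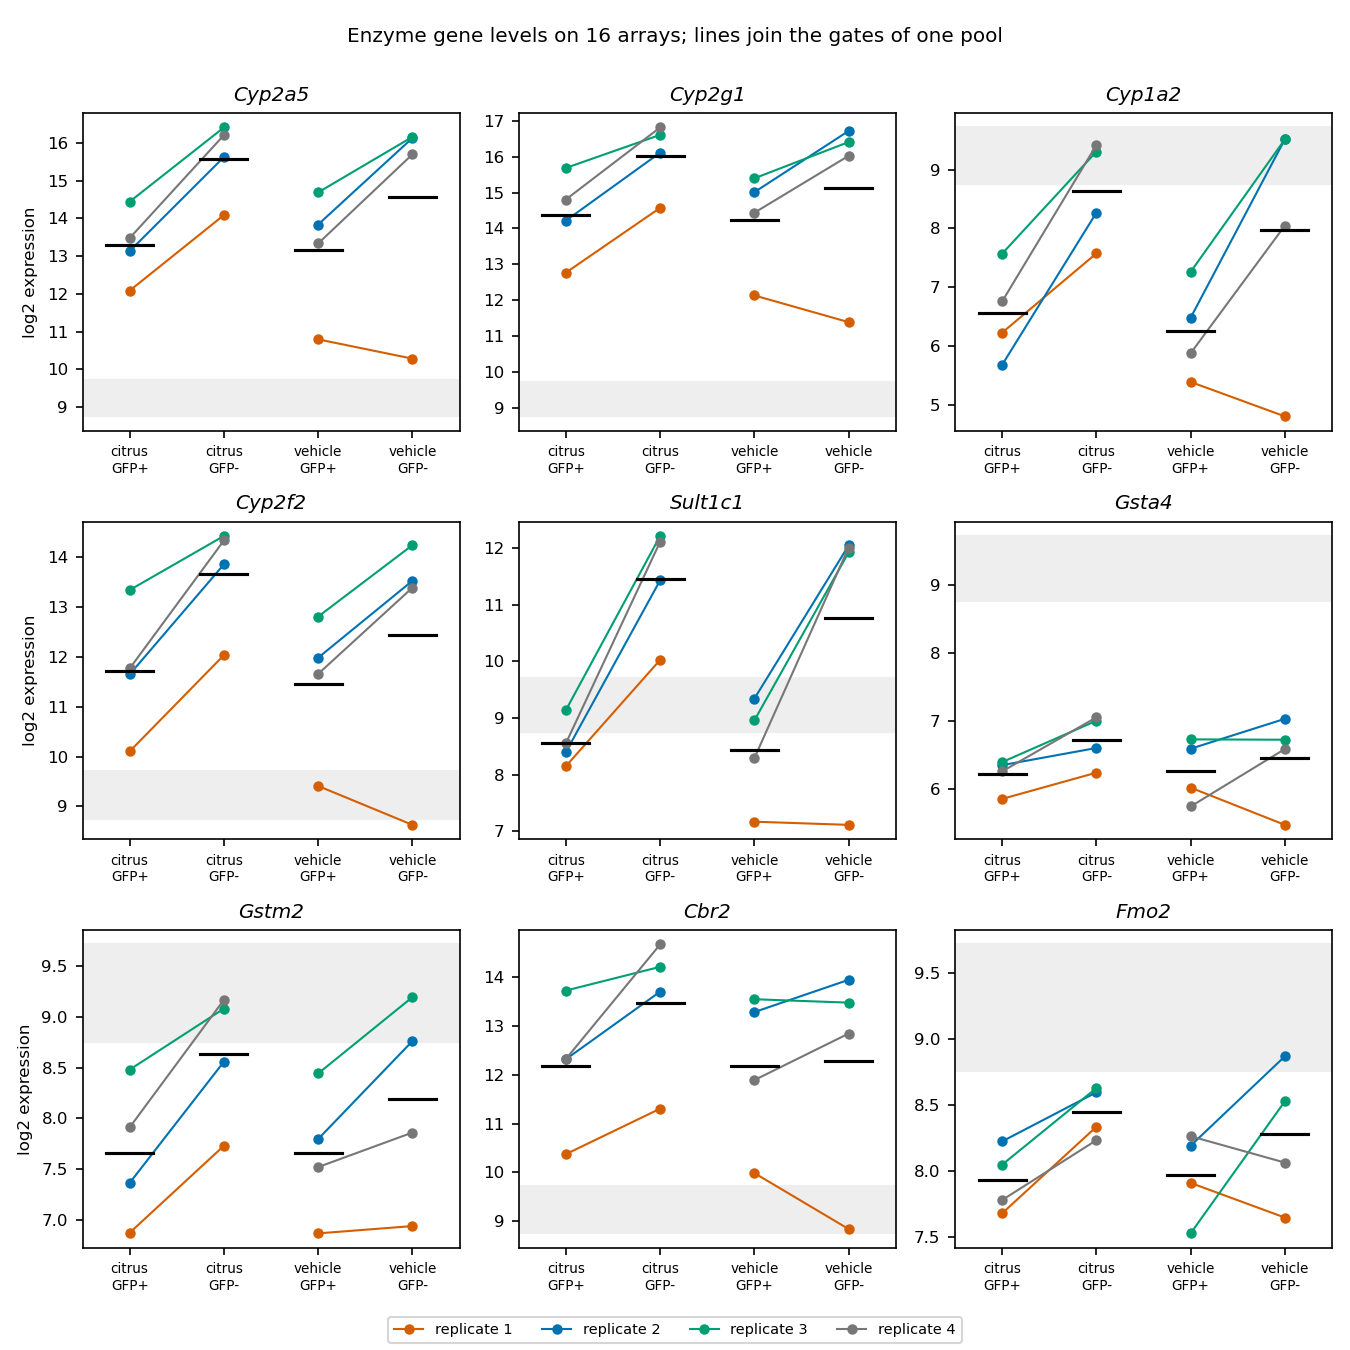
Deposited log2 expression (vertical axis) of the 9 enzyme genes on 16 arrays, with citrus GFP+, citrus GFP-, vehicle GFP+ and vehicle GFP- from left to right. Points are arrays coloured by replicate number, lines join the gates of one pool, black bars are means of 4 arrays and the grey band spans the 95th percentiles of negative-control probes (8.75 to 9.71). Most lines climb toward GFP- cells, except those of vehicle replicate 1.

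The gate comparison asks where the RNA of these enzymes lay relative to the sorted reporter-positive neurons. In citrus, Sult1c1 was the only one of 9 enzymes called, lower in GFP+ cells by 2.89 units (difference -2.89 ± 0.85 SE, limma adjusted p = 0.0231). Its means were 8.56 ± 0.42 in GFP+ and 11.45 ± 1.01 in GFP- cells (SD, n = 4 arrays each). Called lower in this comparison were 10.8% of all named probe sets, and called higher 7.44%, so 1 of 9 is close to the background. The call was lost without citrus replicate 2, 3 or 4 (limma adjusted p from 0.0818 to 0.118). Vehicle replicate 1 enters this comparison through the spread that the 4 groups share, and without it 5 of 9 were called lower in citrus, against 11.0% of all named probe sets: Sult1c1 (limma adjusted p = 4.35e-05), Cyp2a5 (0.0035), Cyp1a2 (0.00556), Cyp2f2 (0.0296) and Cyp2g1 (0.0413). The other 8 differences ran from -2.30 (Cyp2a5, limma adjusted p = 0.157) to -0.51 (Gsta4, limma adjusted p = 0.266), all below 0, and the median of the 9 was -1.66, against 0.13 over all named probe sets.

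In vehicle none of the 9 was called by limma, while 2 had an unadjusted p under 0.05, a smaller share than the 31.3% of all named probe sets. Of all named probe sets, 9.97% were called lower and 9.05% higher. Sult1c1 differed by -2.33 ± 0.85 (limma adjusted p = 0.0640) and Cyp1a2 by -1.72 ± 0.79 (limma adjusted p = 0.147). The remaining differences ran from -1.40 ± 1.08 for Cyp2a5 to -0.10 ± 1.04 for Cbr2, and the median of the 9 was -0.89, against 0.11 over all named probe sets. Without vehicle replicate 1, 3 of the 9 were called lower: Sult1c1 (-3.13), Cyp1a2 (-2.48) and Cyp2a5 (-2.04), against 9.50% of all named probe sets. The median of the 9 was then -1.44. With each array centred on its median, which moved the median difference of all named probe sets by 0.28, Gsta4 and Cbr2 lay above 0 in vehicle, at 0.10 and 0.18.

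The GFP+ and GFP- arrays of one stimulus and number were taken as the 2 sorted parts of one pool, since 24 mice make 8 pools of 3. With the pool as a block, 7 of 9 enzymes were lower in GFP+ cells in citrus, against 11.5% of all named probe sets, and 3 of 9 in vehicle, against 10.7%. The 7 in citrus were Sult1c1 (-2.89 ± 0.49, limma adjusted p = 0.00133), Cyp2a5 (-2.30 ± 0.39, limma adjusted p = 0.00124), Gstm2 (-0.98 ± 0.18, limma adjusted p = 0.00225), Cyp2f2 (-1.95 ± 0.37, limma adjusted p = 0.00307), Cyp2g1 (-1.66 ± 0.35, limma adjusted p = 0.00539), Cyp1a2 (-2.08 ± 0.47, limma adjusted p = 0.00818) and Cbr2 (-1.29 ± 0.34, limma adjusted p = 0.0214). Gsta4 and Fmo2 were not called (limma adjusted p = 0.110 and 0.107). The 3 in vehicle were Sult1c1 (limma adjusted p = 0.00585), Cyp1a2 (0.0230) and Cyp2a5 (0.0242), while Gstm2 (0.0556), Cyp2f2 (0.0854) and Cyp2g1 (0.0928) missed the threshold. Without vehicle replicate 1 the blocked count in vehicle was 6, these 6 genes, against 9.97% of all named probe sets, and in citrus 7, against 11.4%. With the pool as a random effect in place of a fixed one, only 2 of 9 were lower in citrus (Cyp1a2 and Sult1c1), against 11.9%, and 1 in vehicle (Sult1c1), against 11.2%. Each pool holds different mice. The fixed block removes differences in level between pools. Its p-values test the mean gate difference against the variation of that difference from pool to pool.

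Pool by pool, all 9 enzymes were lower in GFP+ than in GFP- cells in each of the 4 citrus pools, with median differences of -1.35, -1.90, -0.92 and -2.34. Among all named probe sets, 15.9% were lower in all 4 citrus pools. In vehicle replicates 2, 3 and 4, 9, 7 and 8 of the 9 were lower, with medians of -1.55, -1.01 and -1.59. The share of all named probe sets lower in a single pool was not counted. Their mean difference over all vehicle pools was below 0 for 7391 of 19572. In vehicle replicate 1 only Gstm2 was lower, by 0.07 units, and the other 8 were higher in GFP+ cells, up to 1.15 units for Cbr2. Groups of arrays that did not overlap between the gates were found in citrus for 3 enzymes, Cyp1a2, Sult1c1 and Fmo2, against 11.0% of all named probe sets, and in vehicle for none, against 9.96%. For Cyp1a2 and Fmo2 the gap was narrow. Their highest GFP+ levels were 7.571 and 8.223, against lowest GFP- levels of 7.576 and 8.232, all near background.

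Structural and regulatory genes of supporting cells were set beside the enzymes. Among 12 supporting cell genes outside the enzyme list, 6 were called lower in GFP+ cells in both stimulus groups: Sdc4, a cell surface proteoglycan, Krt18 and Krt8, the keratins of simple epithelia, Ezr, which ties membrane to actin, the receptor gene Notch2, and Sox2, a transcription factor of supporting and basal cells. Sdc4 differed by -4.96 ± 0.47 in citrus and -4.69 ± 0.47 in vehicle, and Krt18 by -4.38 ± 0.57 and -3.62 ± 0.57 (limma adjusted p 1.73e-05 and 0.000164 for Krt18). None of these 6 was above the background level on any GFP+ array, and Notch2 and Sox2 were near background on the GFP- arrays too. Krt8 was above that level on 2 of 4 citrus GFP- arrays and 0 of 4 vehicle GFP- arrays, and Sdc4 on 3 of 4 in each. Krt18 was near background in vehicle GFP- replicate 1 as well, at 8.39 against 11.06 to 11.15 in the other 3. Ermn, Hes1, Muc2, Reg3g and Epas1 were near background on all or all but 1 of the 16 arrays, Slc2a1 was above it on all 16, and none of these 6 was called. With the pool as a block, Ermn, Reg3g and Epas1 were also lower in citrus. Leaving out vehicle replicate 1 made the counts 8 in citrus and 6 in vehicle. Of all named probe sets, 10.8% were called lower in citrus and 9.97% in vehicle with all pools, and 11.0% and 9.50% without that pool. The gate differences of Notch2 (-2.04 in citrus and -1.97 in vehicle) and Sox2 (-2.64 and -1.82) lay within the range of the enzymes, and a difference between the 2 sets was not tested. Of 13 measured Bowman's gland genes, 6 were called lower in GFP+ cells in citrus and 5 in vehicle, against the same 10.8% and 9.97%. Without vehicle replicate 1 these counts were 7 and 6, against 11.0% and 9.50%. With the pool as a block they were 6 and 7, against 11.5% and 10.7%. The part of gland cells in the enzyme levels was not tested.

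**Figure D2:**
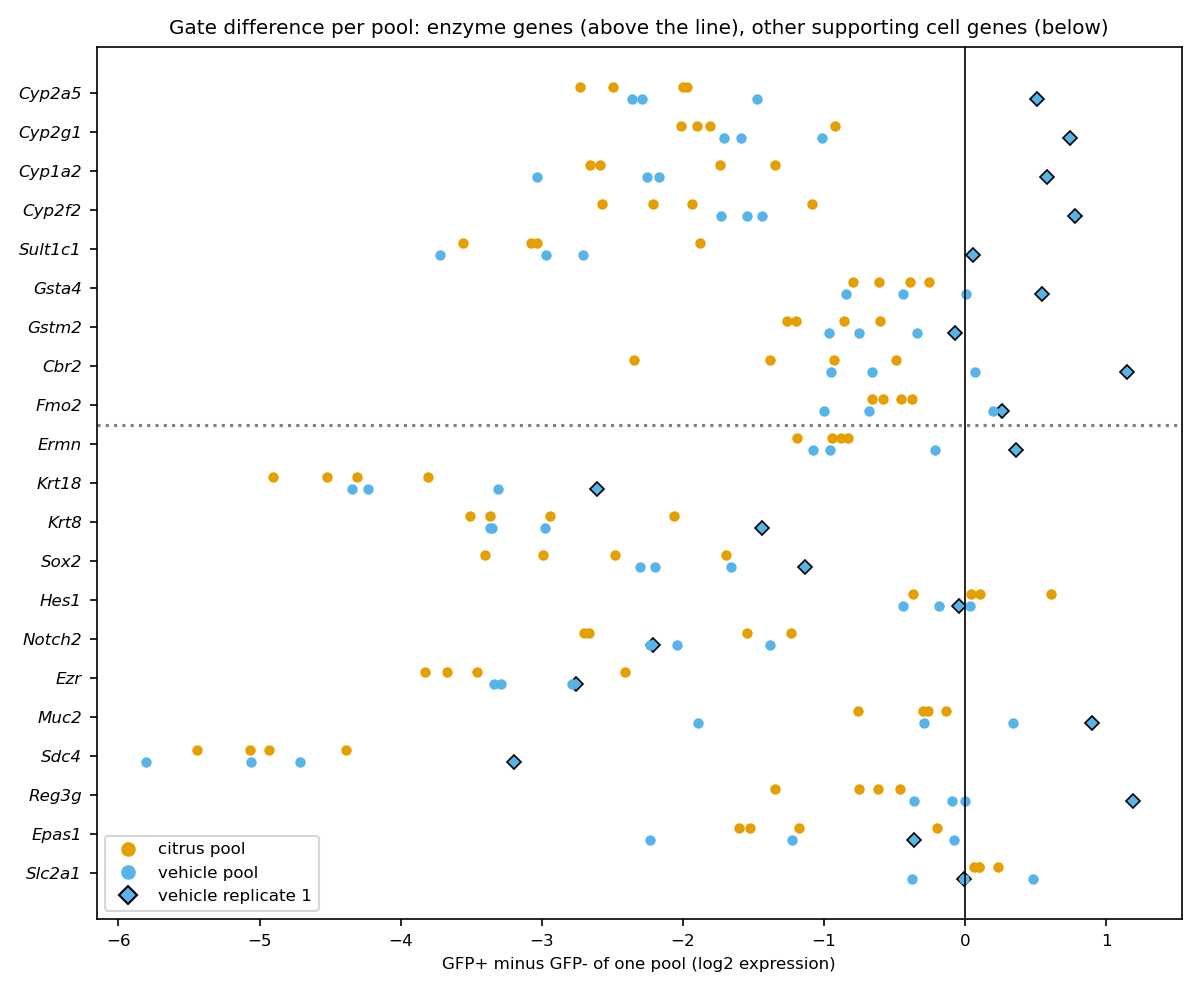
GFP+ minus GFP- log2 expression within each pool (horizontal axis) for the 9 enzymes above the dotted line and 12 other supporting cell genes below it, with citrus and vehicle pools in separate colours and vehicle replicate 1 as a diamond. For Krt18, Krt8, Sox2, Notch2, Ezr and Sdc4 all 8 pools lie below 0, and for the enzymes vehicle replicate 1 lies at or above 0 except for Gstm2.

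How much of the spread went with the gate and how much with the pool was described by sums of squares over the 16 arrays. Pools within a stimulus held more than the gate for 8 of 9 enzymes, from 83.0% against 4.63% for Cbr2 to 38.9% against 30.2% for Fmo2. Pools are more numerous than gates, so they hold the larger share even where neither has an effect. A larger share for pools is therefore not read as a larger effect. For Cyp2g1 the shares were 74.7% for pools and 15.8% for the gate, and for Cyp2a5 66.0% and 24.9%. Sult1c1 was the exception, with 36.9% for pools and 52.0% for the gate. The medians over all named probe sets were 34.0% for pools and 18.4% for the gate. Sdc4 had 5.10% for pools and 92.4% for the gate, and Krt18 12.7% and 84.8%. The stimulus held at most 4.60% for any of the enzymes, that of Cyp2f2. These shares rest in large part on vehicle replicate 1. Without it pools held more than the gate for 3 of 9 enzymes, Gsta4, Gstm2 and Cbr2, and Cyp2a5 had 27.0% for pools and 66.9% for the gate, Cyp2g1 44.2% and 48.4%, Sult1c1 8.61% and 86.6%, and Cbr2 71.5% and 17.1%. The medians over all named probe sets were then 30.4% for pools and 19.7% for the gate.

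**Figure D3:**
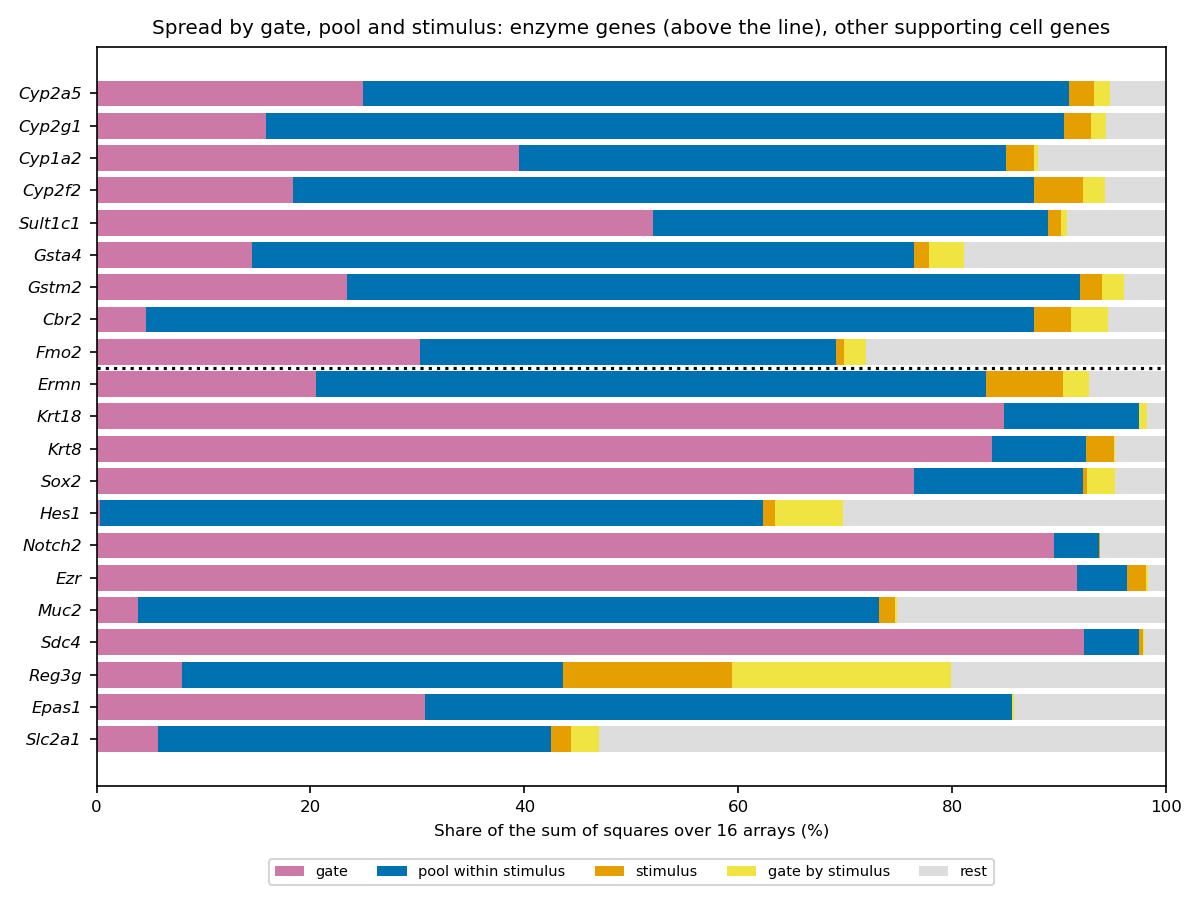
Share of the sum of squares over 16 arrays (horizontal axis, percent) that went with the gate, the pool within its stimulus, the stimulus, gate by stimulus and the rest, for the 9 enzymes (above the dotted line) and 12 other supporting cell genes. With all 8 pools in, pools hold more than the gate for every enzyme except Sult1c1 (for 3 of 9 without vehicle replicate 1), and the gate holds most for Krt18, Krt8, Sox2, Notch2, Ezr and Sdc4. Pools are more numerous than gates, which by itself raises their share.

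The level of an enzyme in the GFP+ cells of a pool was set against its level in the GFP- cells of that pool, a relation chosen after the values were seen. Across the 8 pools Pearson's r was over 0.8 for 6 of 9 enzymes, while 3.48% of all named probe sets exceeded that level and their median r was 0.17. Cyp2a5 had r = 0.92 (exact permutation p = 0.000645) and Spearman's rho = 0.88 (exact permutation p = 0.00724), but adjusted over all named probe sets these p-values became 0.257 and 0.451. No probe set passed after this adjustment. Cyp2g1 had r = 0.90 with rho = 0.76, and Cbr2 r = 0.86 with rho = 0.76 (exact permutation p for r = 0.00218 and 0.00635, adjusted 0.281 and 0.344). Fmo2 had r = 0.15 (exact permutation p = 0.734, adjusted 0.949). Leaving out vehicle replicate 1 and citrus replicate 1, whose GFP- levels lay farthest from the median, gave, over 6 pools, r = 0.75 for Cyp2a5, 0.74 for Gstm2, 0.65 for Cyp2f2, 0.58 for Cyp2g1, 0.47 for Sult1c1 and 0.29 for Cbr2. None of the 6 enzymes stayed over 0.8, and the relations of Sult1c1 and Cbr2 rest on those pools. Without vehicle replicate 1 alone, r for these 6 ran from 0.62 (Sult1c1) to 0.90 (Cyp2g1). The pools of one stimulus number 4, too few for an r of their own.

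**Figure D4:**
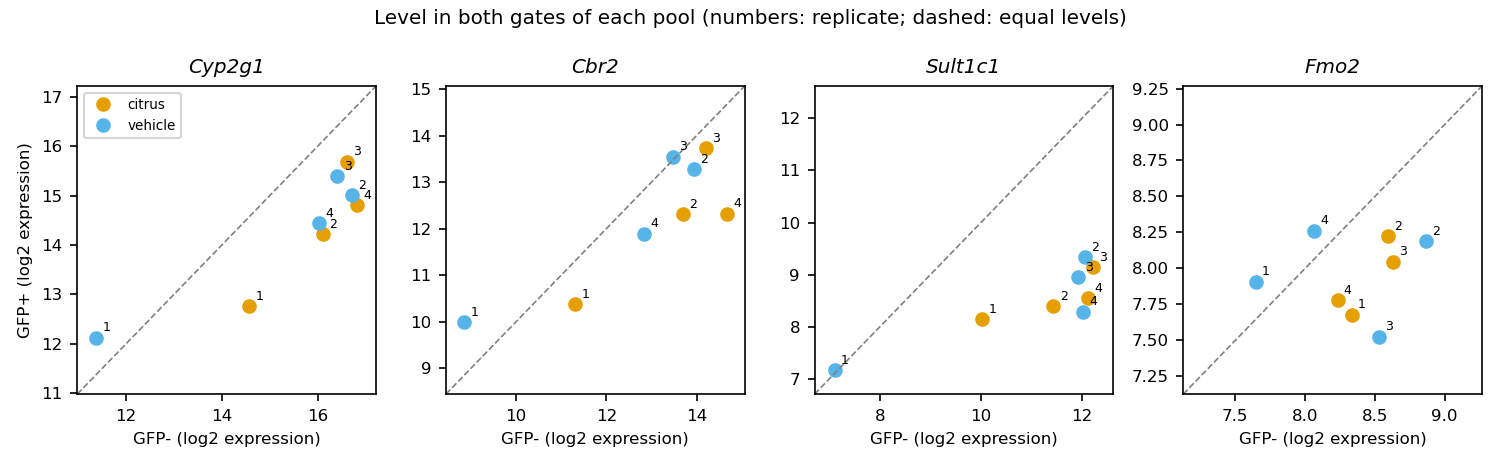
Log2 expression in GFP+ cells (vertical axis) against GFP- cells (horizontal axis) of the same pool for Cyp2g1, Cbr2, Sult1c1 and Fmo2, with citrus and vehicle pools in separate colours, replicate numbers beside the points and a dashed line of equal levels. For Cyp2g1 and Cbr2 the replicate 1 pools lie at the low end in both gates, and for Sult1c1 the GFP+ levels stay between 7.17 and 9.34 while most GFP- levels exceed 11.

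Low levels in the replicate 1 pools were shared by the enzymes. Replicate 1 held the lowest level for 8 of 9 enzymes in citrus GFP+ cells, 8 in citrus GFP- cells, 7 in vehicle GFP+ cells and 9 in vehicle GFP- cells. The share of all named probe sets lowest in replicate 1 was not counted, so these counts have no background to be set against. The enzymes also correlate with one another, so the 9 are not separate observations. The mean over the 9 enzymes was 10.21, 11.42, 11.99 and 12.00 in citrus GFP- replicates 1 to 4, and 7.90, 11.84, 11.80 and 11.17 in vehicle GFP- replicates 1 to 4. The mean of the 12 supporting cell genes outside the enzyme list was 6.72, 8.34, 7.99 and 8.02 in vehicle GFP- replicates 1 to 4. Replicate 1 held the lowest level for 9 of these 12 in vehicle GFP- cells and 9 in citrus GFP- cells. In each GFP+ group it was 7. Other cell types are given on the same vehicle GFP- arrays for reference. The mean of 8 microvillous cell genes was 7.55, 9.33, 8.98 and 9.30, that of 13 Bowman's gland genes was 6.13, 7.19, 7.66 and 7.24, that of 15 mature OSN genes was 15.74, 15.56, 15.74 and 15.44, and that of 12 myeloid and lymphoid genes was 10.83, 11.00, 10.58 and 11.52. The microvillous and gland lists were lowest in replicate 1, as were 6 of the 10 marker lists of other cell types in all, among them the 2 erythroid genes (7.72, 8.50, 10.02 and 10.10) and ensheathing glia (5.16, 5.43, 5.54 and 5.66). The mature and immature OSN and the myeloid and lymphoid lists were not, and the respiratory ciliated list was highest there (7.52, 7.07, 7.31 and 6.93). Whether the share of epithelial cells in that pool bears on the enzyme levels was not tested.

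The enzymes also moved together over single arrays. Over the 16 arrays, which share pools and gates, r ranged from 0.78 to 0.99 among the 28 pairs without Fmo2 and from 0.56 to 0.73 among the 8 pairs with it. Once group means were removed the ranges were 0.80 to 0.99 and 0.42 to 0.56. Vehicle replicate 1, low for these enzymes, remains in both measures. Neither these r values nor the closest profiles below were computed without it. The r among pairs of other probe sets was not computed either, so how unusual these ranges are is not known. Of 6358 other named probe sets above background on at least 4 arrays, those closest to the mean profile of the enzymes were Cyp2a4 (r = 0.99), Gstm1 (0.97), Galm (0.93), Sec14l3 (0.90) and Otx2 (0.86). Cyp2a4 and Gstm1 encode further P450 and glutathione transferase enzymes, Galm a sugar mutarotase, Sec14l3 a lipid-binding protein and Otx2 a homeobox transcription factor. Sult1c1 was closest to Slc5a8, a monocarboxylate transporter gene (r = 0.95), and Cbr2 to Sec14l3 (0.98). Gsta4, near background throughout, was instead closest to the ribosomal protein genes Rps3a1 and Rps14 (both 0.89), and Fmo2 to Comtd1 (0.85).

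Citrus against vehicle asks whether pulses of the accord moved the enzymes. In GFP+ cells no enzyme was called by limma, against 0.0204% of named probe sets called in either direction, and 0 had an unadjusted p under 0.05, against 4.06%. The differences ran from -0.06 ± 0.30 for Gsta4 to 0.31 ± 0.79 for Cyp1a2, with limma adjusted p of 0.999 for each of the 9. For Cyp2g1 the difference was 0.12, with a 95% interval from -1.96 to 2.21, so a change of several-fold in either direction lies within the interval. Fmo2 had the narrowest interval, from -0.54 to 0.46. Over all pools 7 of the 9 differences lay above 0. Without vehicle replicate 1 only that of Cyp1a2 did, at 0.019. Cyp2a5 was then at -0.67, Cyp2g1 at -0.58, Cyp2f2 at -0.44 and Cbr2 at -0.72.

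In GFP- cells no enzyme was called by limma, against 0.0153% of all named probe sets, and 0 had an unadjusted p under 0.05, against 5.88%. All 9 differences were above 0, from 0.17 ± 0.23 for Fmo2 to 1.22 ± 1.02 for Cyp2f2, with limma adjusted p between 0.895 and 0.942. Cyp2f2 had an interval from -0.93 to 3.37, and Cbr2 was next at 1.19 ± 1.04. Cyp2a5 averaged 15.58 ± 1.05 in citrus GFP- cells and 14.57 ± 2.86 in vehicle GFP- cells (SD, n = 4 arrays each). Without vehicle replicate 1, 7 of these 9 differences were below 0, Cyp2a5 at -0.41 and Sult1c1 at -0.55 among them, and Gstm2 and Cbr2 were at 0.029 and 0.050.

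**Figure D5:**
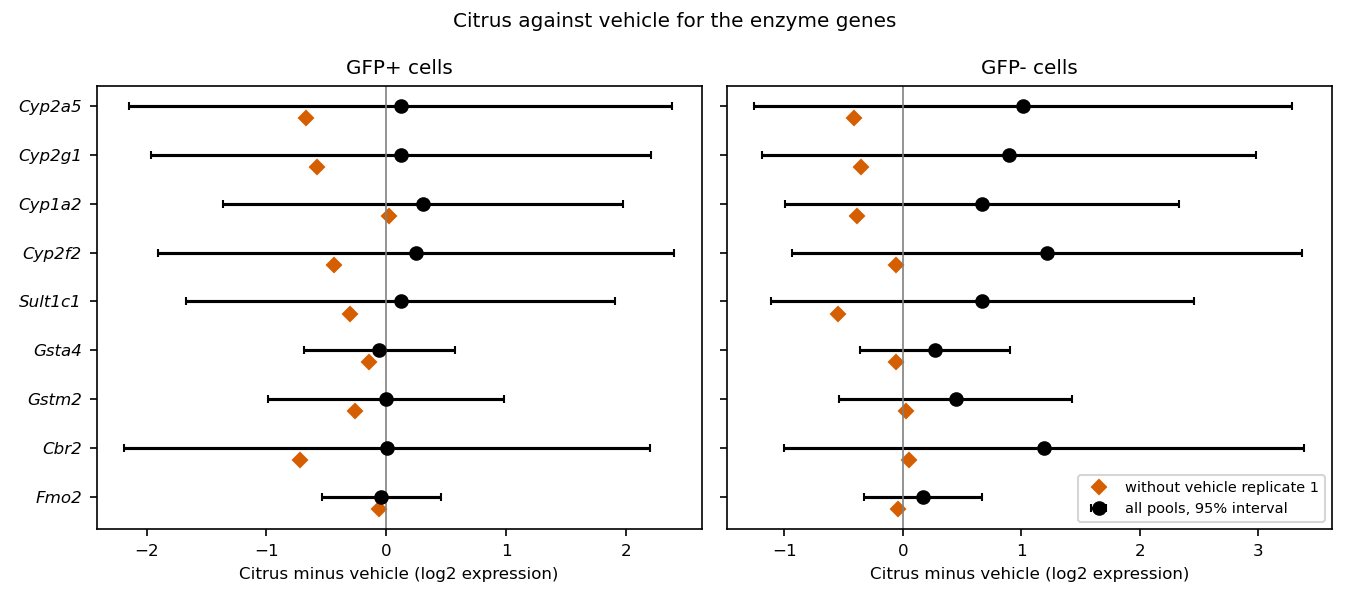
Citrus minus vehicle log2 expression (horizontal axis) of the 9 enzymes in GFP+ cells (left) and GFP- cells (right). Black points with bars are the estimates over all pools with 95% intervals, all of which include 0, and diamonds are the estimates without vehicle replicate 1, which lie lower than those over all pools.

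The effect of citrus on the gate difference was below 0 for all 9 enzymes, from -0.21 ± 0.33 for Fmo2 to -1.19 ± 1.47 for Cbr2. None was called by limma (adjusted p = 0.999 for each), and 0% of named probe sets were. At an unadjusted p under 0.05 there were 0 enzymes, against 3.69% of named probe sets. With the pool as a block none was called either (limma adjusted p from 0.907 to 0.968). Cbr2 then had an unadjusted limma p of 0.0334, a level at which the share of all named probe sets was not counted. More enzymes were called between the gates in citrus than in vehicle, but this contrast showed no difference between the stimulus groups for any enzyme. Without vehicle replicate 1 the values for Cyp1a2 and Sult1c1 were above 0, at 0.40 and 0.24. The others stayed below 0 but shrank, to between -0.023 for Fmo2 and -0.77 for Cbr2, with Cyp2a5 at -0.26.

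Other enzymes of the same pathway were tallied from lists of phase I and phase II genes and of transporters and regulators. Of 71 measured phase I genes outside the 9, 3 were higher and 5 lower in GFP+ cells in citrus, against 7.44% and 10.8% of all named probe sets. In vehicle 4 were higher and 6 lower, against 9.05% and 9.97%. Leaving out vehicle replicate 1 made these counts 2 and 8 in citrus and 2 and 6 in vehicle. With the pool as a block they were 3 and 7 in citrus, against 9.52% and 11.5% of all named probe sets, and 8 and 8 in vehicle, against 11.0% and 10.7%. The median difference of the list was -0.03 in citrus. Aldh2, the mitochondrial aldehyde dehydrogenase that clears acetaldehyde, was lower by 4.19 units in citrus (-4.19 ± 0.50) and by 3.71 in vehicle (-3.71 ± 0.50). Xdh, xanthine dehydrogenase, was lower at -3.97 ± 0.38 and -3.51 ± 0.38, and the alcohol dehydrogenase gene Adh1 at -1.79 ± 0.28 and -1.05 ± 0.28. Cyp2s1, a P450 of epithelia, was higher in GFP+ cells, at 0.79 ± 0.18 in citrus and 0.94 ± 0.18 in vehicle. On the same arrays, all 12 genes of the myeloid and lymphoid list were called lower in both stimulus groups, with median differences of -5.43 and -5.08 (11 of 12 in vehicle without vehicle replicate 1). Their part in the lower levels of these enzymes was not tested.

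Of 47 measured phase II genes, 3 were higher and 13 lower in GFP+ cells in citrus, against 7.44% and 10.8% of all named probe sets. In vehicle 3 were higher and 11 lower, against 9.05% and 9.97%. Leaving out vehicle replicate 1 made the citrus counts 4 and 14, with 11.0% of all named probe sets lower. Blocking on the pool made them 4 and 15 in citrus, against 9.52% and 11.5%, and 3 and 13 in vehicle, against 11.0% and 10.7%. The median difference of the list was -0.09 in citrus and -0.06 in vehicle. Mgst1, a microsomal glutathione transferase, was lower at -3.94 ± 0.45 in both, Gsto1, an omega class transferase, at -2.08 ± 0.31 and -1.73 ± 0.31, and Gstp1, a pi class transferase, at -1.87 ± 0.23 and -1.63 ± 0.23. The estrogen sulfotransferase gene Sult1e1 was lower at -2.18 ± 0.41 and -1.68 ± 0.41. Gss, which makes glutathione, was higher, at 0.57 ± 0.16 in citrus and 0.78 ± 0.16 in vehicle. Of 22 transporters and regulators, with median differences of -0.05 and 0.10, 3 were lower in each stimulus group and none was higher, namely the efflux pump genes Abcg2 (-2.05 ± 0.31 and -1.07 ± 0.31) and Abcc3 (-1.89 ± 0.39 and -1.51 ± 0.39) and the heme synthesis gene Alas1 (-0.96 ± 0.20 and -0.90 ± 0.20), in citrus and in vehicle. These 3 of 22 are close to the 10.8% and 9.97% of all named probe sets called lower in citrus and in vehicle. No gene of these 3 lists was called between citrus and vehicle in either gate.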

How the data were processed

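Clariom S mouse arrays were used for 16 samples in 4 groups, taken from the labels. The authors deposited log2 expression values for 28846 probe sets, a gene-level SST-RMA signal per the labels. The submitters' processing notes name Affymetrix Expression Console as the software. Version and build were not given in the sources used here. This signal space transformation can stretch the scale. Symbols came from the platform annotation, where 19572 probe sets had 1 symbol, 0 several and 2634 none, beside 6640 control probes.

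The enzymes and gene lists were chosen with earlier results of these data known. All named probe sets were fitted with limma 3.58.1 in R 4.3.3 (4 group means, 1 spread per probe set, empirical Bayes, two-sided), without a pool term. Errors beside differences are standard errors, and intervals are 95%. Arrays give no read depth, so their number limits the precision. That gates of one number share mice is not stated outright in the labels. Deviations of such arrays from their group means correlated at 0.07 to 0.27 over the 8 pools, and the fit with the pool as a block is given where it changes a call. Citrus and vehicle arrays of one number hold different mice and share only the number, and their deviations correlated about as highly, at 0.07 to 0.33 in GFP+ and -0.013 to 0.35 in GFP- cells. Named genes were all enzymes, all supporting cell markers, up to 6 called genes per list, comparison and direction, and the 5 closest profiles. A symbol with several probe sets was represented by the brightest. The fits were tested on simulated data. Plots were made in Python 3.11.15 (matplotlib 3.10.9). No batch was named in the labels.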

Additional observations from a re-analysis of the deposited data

Results flagged for a closer look

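An array far from the other 3 of its group was looked for in 84 sets of 4 arrays, with Dixon's test at its 95% critical value, and 9 were found. Chance alone would give about 1 such set in 20. Among the enzymes all 4 lay in vehicle GFP- replicate 1: Cyp2a5 at 10.28 (next lowest 15.70), Cyp2g1 at 11.38 (next 16.03), Cyp2f2 at 8.63 (next 13.39) and Sult1c1 at 7.11 (next 11.93). On the same array Krt18 was at 8.39, Sdc4 at 8.01 and Reg3g at 3.47, each the lowest of its group. Ermn was lowest in vehicle GFP+ replicate 1, at 4.67. Hes1 was the one high value, at 4.07 in citrus GFP- replicate 4.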

How the results depend on the processing

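Of the gate differences of single enzymes in citrus none changed direction under any alternative tried, and in vehicle only those of Gsta4 and Cbr2 did. The number of enzymes called moved with the setting. In vehicle it was 0, and 1 with arrays centred on mature OSN genes, with array weights or with the replicate block as a random pool effect, 3 with the replicate block (pool), 6 with that block without vehicle replicate 1, and 0 to 3 when any one replicate was left out. In citrus it was 1, and 3 with OSN centring or only the groups compared, 0 with a trended and robust prior, 2 with array weights or the random pool effect, 7 with the replicate block (pool), also without vehicle replicate 1 or citrus replicate 1, and 0 to 5 with one replicate left out, 5 being without vehicle replicate 1. The causes were not tested.

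The number of probe sets called between the gates in vehicle (3723, of which 1771 higher and 1952 lower) was 2012 with dim probe sets left out, 8635 with arrays centred on the median (7080 higher, 1555 lower), and 2369 to 3675 with one replicate left out. In citrus 3569 (1457 higher, 2112 lower) became 1564 and 10839 (9128 higher, 1711 lower). OSN centring gave 456 higher and 3962 lower in vehicle, 545 and 3070 in citrus, and quantile normalization 2340 and 1984 in citrus. These centrings moved the median of all probe sets by 0.28 and 0.33 (median) and by -0.38 and -0.30 (OSN). Between citrus and vehicle 4 probe sets were called in GFP+ cells, and 2 with dim probe sets left out. In GFP- cells it was 3, and 1 without both replicate 1 pools. For the gate difference under citrus it was 0, and 1 with OSN centring, the trended prior, the replicate block (pool) or the random pool effect, and 0 to 1 with one replicate left out. The replicate block by number changed no call of an enzyme between citrus and vehicle.

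None of the differences that changed sign was called. In the vehicle gates Gsta4 was at 0.10 with median centring and 0.057 with quantile normalization, and at -0.43 to 0.038 with one replicate left out, and Cbr2 was at 0.18 with median centring and -0.51 to 0.18 with one replicate left out. For citrus minus vehicle in GFP+ cells, Gstm2 and Cbr2 were at -0.0087 and -0.0014 with median centring and at -0.042 and -0.043 with quantile normalization. Leaving out one replicate gave ranges of -0.67 to 0.63 for Cyp2a5, -0.58 to 0.66 for Cyp2g1, -0.031 to 0.64 for Cyp1a2, -0.44 to 0.79 for Cyp2f2, -0.30 to 0.42 for Sult1c1, -0.23 to 0.10 for Gsta4, -0.27 to 0.26 for Gstm2, -0.72 to 0.61 for Cbr2 and -0.19 to 0.056 for Fmo2. Without both replicate 1 pools these were -0.27 for Cyp2a5, -0.045 for Cyp2g1, -0.17 for Sult1c1, -0.0011 for Gstm2, -0.12 for Cbr2 and 0.023 for Fmo2. In GFP- cells the ranges were -0.41 to 1.55 for Cyp2a5, -0.36 to 1.42 for Cyp2g1, -0.38 to 1.18 for Cyp1a2, -0.056 to 1.82 for Cyp2f2, -0.55 to 1.15 for Sult1c1, -0.056 to 0.46 for Gsta4 and -0.039 to 0.37 for Fmo2, each at its lowest without vehicle replicate 1. Without both replicate 1 pools Cyp1a2 was at -0.030, Sult1c1 at -0.075 and Fmo2 at -0.0011. For the effect on the gate difference the ranges were -0.80 to 0.40 for Cyp1a2 and -1.01 to 0.24 for Sult1c1. The settings without the replicate 1 pools, other than leaving out one pool, and those that left out a pool of the other stimulus group, were chosen after the data were seen.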
